A study of Mus musculus with 18 samples.

Results

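The tumor suppressor p53 and its targets, together with the 2 cyclin-dependent kinase inhibitor genes of the Cdkn2 locus, were followed across tumors treated with a Pistol ribozyme against PD-L1. The set was listed by name and comprises 10 of the 41079 genes in the expression table: Trp53, Mdm2, Cdkn1a, Bax, Bbc3, Ccng1, Phlda3, Sesn2, Cdkn2a and Cdkn2b. All 10 were present, and 8 of them reached the mean of 1 FPKM (fragments per kilobase of gene, scaled to the total of each library) required for the tests across all genes. Cdkn2a and Cdkn2b did not, and they were taken from a fit without that filter.

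B16F10, a mouse melanoma line, was grown under the flank skin of female C57BL/6 mice (the labels and the study's methods differ in the number of cells injected), and intratumoral injections began on day 6, at a tumor volume of about 50 mm3, and were repeated every 2 days. Tumor tissue was taken 48 h after the final injection, and poly(A) RNA was sequenced from 18 tumors, 3 in each of 6 groups. One group received PBS, another the active ribozyme alone (Free PS473), and another the ribozyme carried by cationic polymers (PS473@CPs). The remaining groups received the manganese framework NKMOF-101-[Mn] without ribozyme, with the catalytically inactive ribozyme M5 (M5@NKMOF-101-[Mn]) or with the active ribozyme (PS473@NKMOF-101-[Mn]). In the sample titles the last framework is spelled NKMOF-102-[Mn], whereas the treatment protocol gives 101. All groups share the same transplanted line and host strain, so that every tumor is a mixture of melanoma and host cells, and fewer cells of a type cannot be told apart from less RNA per cell. The labels do not say whether the tumors of a group came from separate mice, and p values measure the spread between these samples.

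p53 is a transcription factor that is kept low by the ubiquitin ligase Mdm2, which is itself a p53 target, so that the pair forms a feedback loop. When DNA damage or oncogene activity frees p53 from Mdm2, it raises genes that stop the cell cycle, start apoptosis or limit stress. The Cdkn2a gene encodes 2 unrelated proteins from different first exons: p19Arf, which inhibits Mdm2, and p16Ink4a, which, like the product of the neighbouring Cdkn2b, inhibits the kinases Cdk4 and Cdk6 upstream of the retinoblastoma protein. Loss of this locus is a classical event in melanoma. A value per gene, as deposited here, adds both Cdkn2a products together.

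The promoters were read first, since p53 acts through a short recognition site made of 2 copies of a decamer. The copies abut or lie up to 13 bases apart. RefSeq promoters of build GRCm38.p6, from 250 bases before to 50 bases after a transcription start, were found for all 10 genes, 14 in total. An exact match to the p53 decamer consensus, which reads the same on both strands, lay in 5 of the 14, against 8.36% of 32851 mouse promoters of the same length. A pair of exact decamers 0 to 13 bases apart lay in 1 of the 14, the upstream Cdkn1a promoter. Such pairs lay in 0.0731% of all promoters and in 0 of 40 promoters of other p53 targets. A run of 20 bases that departed from 2 abutting decamers at no more than 1 position was present in the promoters of Cdkn1a and Ccng1, against 0.0883% of all promoters and 0 of 40 promoters of 28 other p53 targets. These runs overlap the exact decamers by construction, and a match describes letters only. The Cdkn1a and Ccng1 promoters are shown for this run, the first on the plus strand of chromosome 17 at the upstream of 2 starts of the gene (chr17:29090729-29091028) and the second on the minus strand of chromosome 11 (chr11:40755237-40755536). Capitals mark exact decamers and the 20-base run, which is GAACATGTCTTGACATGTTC in Cdkn1a, from −51 to −32 relative to the start, and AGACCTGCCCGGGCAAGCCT in Ccng1, from −195 to −176.
Cdkn1a, upstream start: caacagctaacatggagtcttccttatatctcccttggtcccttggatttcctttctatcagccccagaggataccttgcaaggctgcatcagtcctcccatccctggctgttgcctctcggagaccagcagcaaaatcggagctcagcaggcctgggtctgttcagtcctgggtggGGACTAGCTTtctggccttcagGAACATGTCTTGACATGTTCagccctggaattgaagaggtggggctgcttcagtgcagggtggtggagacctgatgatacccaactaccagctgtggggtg
Ccng1: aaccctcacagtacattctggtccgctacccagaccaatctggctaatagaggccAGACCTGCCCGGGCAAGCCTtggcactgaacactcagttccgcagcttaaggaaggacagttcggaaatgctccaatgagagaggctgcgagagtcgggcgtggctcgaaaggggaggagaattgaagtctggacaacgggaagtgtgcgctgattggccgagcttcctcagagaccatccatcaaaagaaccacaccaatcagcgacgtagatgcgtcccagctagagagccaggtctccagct

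The 3 promoters of the Cdkn2 locus are shown because they separate what the expression table joins. All lie on the minus strand of chromosome 4, and none held a p53 decamer, so that no letters are in capitals. The upstream Cdkn2a start (chr4:89294570-89294869) has a GC content of 77.0%, the downstream one (chr4:89282143-89282442) 60.3% and the Cdkn2b start (chr4:89310983-89311282) 57.7%.
Cdkn2a, upstream start: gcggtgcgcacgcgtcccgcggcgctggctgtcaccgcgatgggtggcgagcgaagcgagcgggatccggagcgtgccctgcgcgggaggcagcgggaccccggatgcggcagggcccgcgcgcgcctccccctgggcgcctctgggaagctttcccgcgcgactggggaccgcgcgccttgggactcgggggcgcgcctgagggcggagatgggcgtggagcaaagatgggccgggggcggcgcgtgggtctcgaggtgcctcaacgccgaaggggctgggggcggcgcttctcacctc
Cdkn2a, downstream start: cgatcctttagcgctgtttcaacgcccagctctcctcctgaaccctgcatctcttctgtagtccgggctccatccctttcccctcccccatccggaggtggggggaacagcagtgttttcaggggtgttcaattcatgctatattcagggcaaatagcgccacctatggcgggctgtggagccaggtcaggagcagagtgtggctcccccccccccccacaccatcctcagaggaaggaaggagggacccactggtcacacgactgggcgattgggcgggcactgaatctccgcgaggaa
Cdkn2b: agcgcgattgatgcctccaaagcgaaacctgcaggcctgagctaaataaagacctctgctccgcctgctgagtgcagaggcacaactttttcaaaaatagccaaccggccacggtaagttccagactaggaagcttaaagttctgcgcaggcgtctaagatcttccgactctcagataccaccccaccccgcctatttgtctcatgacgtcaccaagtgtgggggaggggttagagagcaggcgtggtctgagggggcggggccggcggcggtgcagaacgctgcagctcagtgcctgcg

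The libraries held between 17169000 and 28402000 recovered fragments. The melanoma label was borne out by the lineage markers: all 12 melanocyte genes exceeded 1 FPKM on average, led by the melanin synthesis enzymes and matrix protein Dct (2686 FPKM), Pmel (1356 FPKM) and Tyrp1 (1115 FPKM). The tumors differed widely in host tissue. A score for skin epithelium, the mean log2(FPKM + 1) of its 12 markers, lay between 0.00599 and 0.0726 in 8 tumors and between 0.654 and 6.22 in the other 10, with no tumor in between. These are called skin-poor and skin-rich, a split made after the scores were seen, and both kinds occurred in every group. The fibroblast score ran from 1.89 to 4.57 and the macrophage score from 1.88 to 4.33.

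Trp53 was the steadiest gene of the set, whereas its brake Mdm2 ran from 4.55 to 9.65 FPKM. Trp53 was expressed at 17.7, 23.0 and 25.2 FPKM in the PBS tumors, 26.8, 24.2 and 20.2 with Free PS473, 25.2, 22.7 and 22.1 with PS473@CPs, 23.4, 26.3 and 24.2 with NKMOF-101-[Mn], 21.0, 20.4 and 20.6 with M5@NKMOF-101-[Mn] and 22.0, 24.6 and 24.9 with PS473@NKMOF-101-[Mn]. Its coefficient of variation over 18 tumors was 10.4%, and the M5@NKMOF-101-[Mn] tumors lay below all tumors of PS473@NKMOF-101-[Mn], PS473@CPs and NKMOF-101-[Mn]. Groups separated in this way occurred in 4.48%, 10.3% and 15.0% of all tested genes, respectively. Mdm2 was expressed at 7.49, 7.78 and 6.91 FPKM with PBS, 8.15, 6.22 and 9.65 with Free PS473, 6.42, 6.27 and 7.08 with PS473@CPs, 7.68, 6.82 and 7.44 with NKMOF-101-[Mn], 6.74, 8.31 and 6.74 with M5@NKMOF-101-[Mn] and 6.74, 7.75 and 4.55 with PS473@NKMOF-101-[Mn]. No pair of groups was separated in Mdm2, whose highest tumor was Free PS473 tumor 3 and whose lowest was PS473@NKMOF-101-[Mn] tumor 3. These 2 groups had the largest spread (SD 1.72 and 1.63), to which the 2 tumors themselves contribute.

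Cdkn1a, which encodes the cell cycle inhibitor p21, was the most variable of the 3 most abundant targets. Its values were 51.2, 87.1 and 69.7 FPKM with PBS, 109.5, 46.4 and 105.1 with Free PS473, 52.1, 85.8 and 59.2 with PS473@CPs, 67.3, 46.3 and 70.3 with NKMOF-101-[Mn], 53.2, 56.7 and 47.3 with M5@NKMOF-101-[Mn] and 44.9, 51.8 and 67.0 with PS473@NKMOF-101-[Mn]. The 2 highest tumors both received Free PS473, while the remaining tumor of that group was among the lowest, and every pair of groups overlapped. Ccng1, which encodes cyclin G1, a p53 target that feeds back on Mdm2, was measured at 25.9, 32.8 and 40.7 FPKM with PBS, 52.2, 35.6 and 39.5 with Free PS473, 31.6, 33.3 and 28.7 with PS473@CPs, 29.9, 32.1 and 25.1 with NKMOF-101-[Mn], 27.5, 23.1 and 26.1 with M5@NKMOF-101-[Mn] and 26.2, 30.0 and 36.7 with PS473@NKMOF-101-[Mn]. In Ccng1, all Free PS473 tumors exceeded all tumors of PS473@CPs, of the empty framework and of M5@NKMOF-101-[Mn], separations found in 7.54%, 7.79% and 14.6% of tested genes, and they overlapped with PBS and PS473@NKMOF-101-[Mn]. The PS473@CPs tumors also exceeded all M5@NKMOF-101-[Mn] tumors in Ccng1, a separation found in 10.3% of tested genes.

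The apoptosis genes Bax and Bbc3 differed in abundance and spread. Bax, whose product permeabilizes the outer mitochondrial membrane, was the most abundant gene of the set at a mean of 79.6 FPKM, from 61.8 to 96.5 over the tumors. Its Free PS473 tumors, at 88.8, 87.3 and 86.9 FPKM, were the tightest group and lay above all tumors given M5@NKMOF-101-[Mn] or the empty framework, separations found in 14.6% and 7.79% of tested genes. Bbc3, which encodes the BH3-only protein Puma, was expressed at 2.68, 2.78 and 2.32 FPKM with PBS, 4.93, 2.37 and 4.01 with Free PS473, 2.28, 1.89 and 2.22 with PS473@CPs, 1.74, 2.57 and 2.41 with NKMOF-101-[Mn], 2.43, 1.97 and 2.71 with M5@NKMOF-101-[Mn] and 2.93, 2.28 and 2.38 with PS473@NKMOF-101-[Mn]. As for Cdkn1a, Free PS473 tumors 1 and 3 were the 2 highest, and tumor 2 of that group lay inside the range of the others. All PS473@CPs tumors lay below those of PBS, Free PS473 and PS473@NKMOF-101-[Mn], as was seen in 5.11%, 7.54% and 4.12% of tested genes.

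The last 2 p53 targets act in signaling and stress. Phlda3, whose product restrains Akt, averaged 58.4 FPKM and ranged from 48.1 to 81.8, with all PBS tumors (57.2, 57.3 and 59.4 FPKM) above those given M5@NKMOF-101-[Mn] (55.7, 56.5 and 52.8 FPKM). That pair of groups was separated in 8.11% of tested genes. Sesn2, which encodes a sestrin that senses leucine and restrains mTORC1, averaged 7.90 FPKM and ranged from 5.41 to 13.5, with its top values in Free PS473 tumor 1 (13.5 FPKM) and NKMOF-101-[Mn] tumor 3 (13.0 FPKM). In Sesn2, all PS473@NKMOF-101-[Mn] tumors lay above all tumors of PS473@CPs and of M5@NKMOF-101-[Mn], separations found in 4.12% and 4.48% of tested genes. Free PS473 tumor 1 held the highest value of the 18 for 6 of the 10 genes (Trp53, Cdkn1a, Bbc3, Ccng1, Phlda3 and Sesn2). Its median rank over the 8 expressed genes was 1. How many of all tested genes were highest in that tumor was not counted. That tumor was skin-poor, with a melanocyte score of 7.23 that was lower than in all but 2 of the 18 tumors (range 7.00 to 7.91) and the lowest T cell score (0.246), and the part of cell content in its values was not tested.

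**Figure D1:**
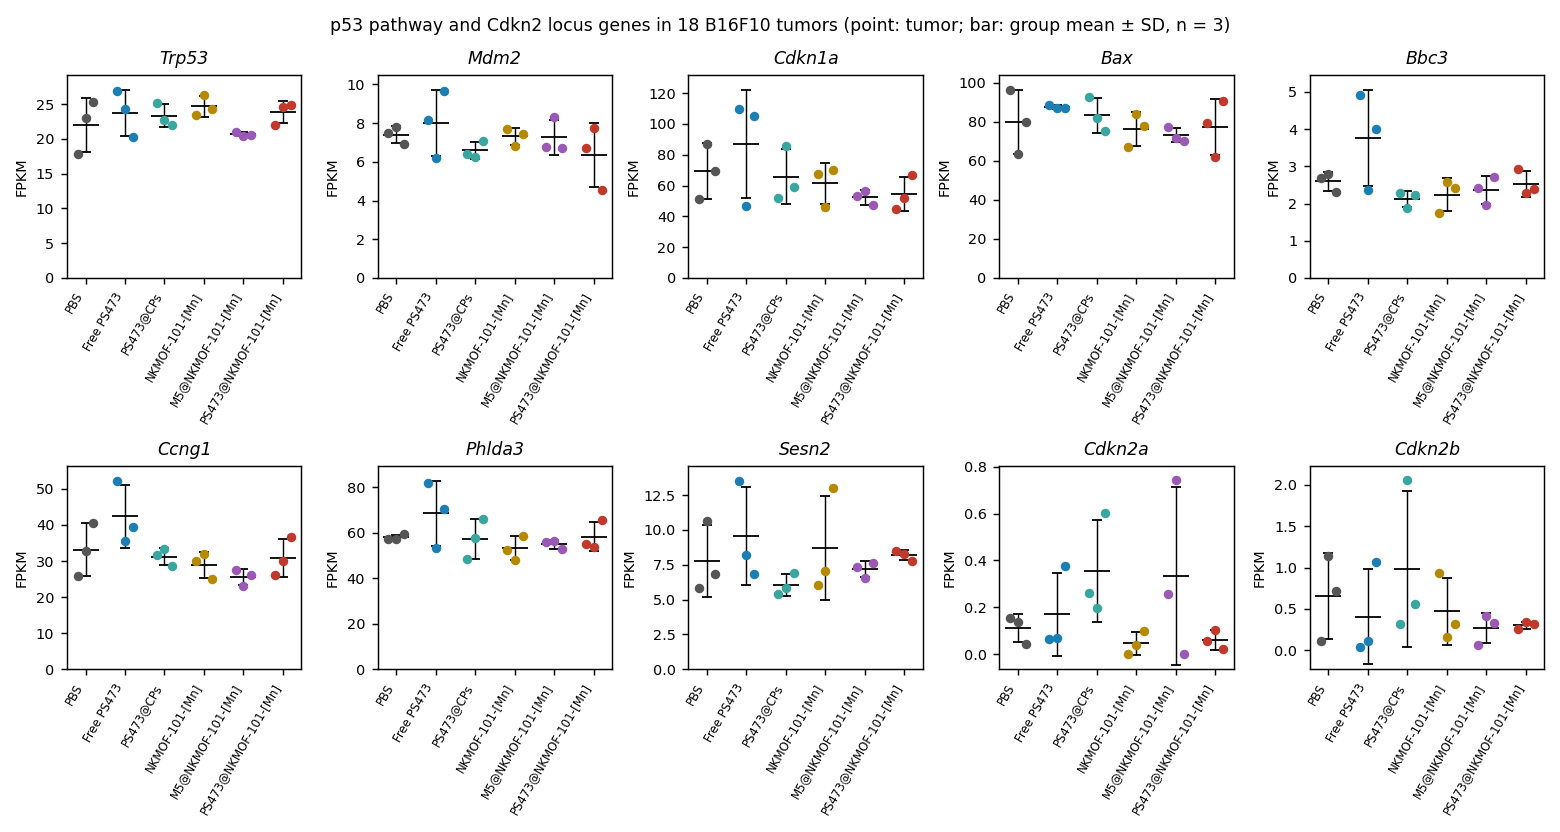
Level of each of the 10 genes (FPKM, linear axis starting at 0 or below the SD bar) in the 6 groups, with 1 point per tumor and bars for the group mean ± SD (n = 3). Free PS473 tumor 1 is the highest tumor in 6 panels, and Cdkn2a stays at or under 0.744 FPKM in every tumor.

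Both genes of the Cdkn2 pair averaged under 1 FPKM, and Cdkn2a was near the limit of detection. Cdkn2a was measured at 0.154, 0.135 and 0.0449 FPKM with PBS, 0.0657, 0.0686 and 0.375 with Free PS473, 0.262, 0.197 and 0.604 with PS473@CPs, 0, 0.0396 and 0.0991 with NKMOF-101-[Mn], 0.256, 0.744 and 0 with M5@NKMOF-101-[Mn] and 0.0558, 0.105 and 0.0215 with PS473@NKMOF-101-[Mn]. These values stand for 80.5 recovered fragments over all 18 tumors, between 0 and 19.5 in each, and 7 tumors reached 3 fragments. In the 2 tumors listed at 0, a count of 0 allows up to 0.130 FPKM (NKMOF-101-[Mn] tumor 1) and 0.134 FPKM (M5@NKMOF-101-[Mn] tumor 3), for counting error only. The PS473@CPs tumors lay above all tumors of PBS, PS473@NKMOF-101-[Mn] and the empty framework, pairs that were separated in 5.11%, 4.12% and 6.08% of the genes averaging 1 FPKM or more. PS473@CPs tumor 3, which held 19.5 of the fragments, also had the deepest library of the series (28402000 fragments), and the part of depth was not tested.

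Cdkn2b was measured at 0.108, 1.14 and 0.713 FPKM with PBS, 0.0357, 0.112 and 1.07 with Free PS473, 0.320, 2.06 and 0.556 with PS473@CPs, 0.933, 0.161 and 0.323 with NKMOF-101-[Mn], 0.0626, 0.410 and 0.326 with M5@NKMOF-101-[Mn] and 0.258, 0.342 and 0.316 with PS473@NKMOF-101-[Mn]. The PS473@NKMOF-101-[Mn] tumors were close together (SD 0.0428), the other groups spread more widely (SD 0.181 to 0.945), and no pair of groups was separated. In fragments, Cdkn2b ran from 1.00 to 70.6 per tumor, with 16 tumors at 3 or more.

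The surroundings of the locus were examined in RefSeq gene order, taken for names and neighbours only. Mtap, the methylthioadenosine phosphorylase gene and nearest protein-coding neighbour of Cdkn2a on one side, was expressed at a mean of 51.3 FPKM, between 45.0 and 58.6 in every tumor. On the other side, Gm12610, a long noncoding RNA gene that lies between Cdkn2a and Cdkn2b, averaged 0.0130 FPKM, the transcription factor gene Dmrta1 averaged 0.00145 FPKM, and the neuronal RNA-binding protein gene Elavl2 averaged 0.000520 FPKM. Of the 50 genes listed around Cdkn2a, 4 had a mean of at least 1 FPKM, including Mtap and Klhl9, an adaptor of a ubiquitin ligase (21.5 FPKM), and 18 genes, among them several type I interferon genes, were at 0 in all 18 tumors. The step from Mtap to the Cdkn2 pair was thus present in every tumor, since the lowest Mtap value (45.0 FPKM) exceeded the highest of Cdkn2b (2.06 FPKM) and of Cdkn2a (0.744 FPKM).

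**Figure D2:**
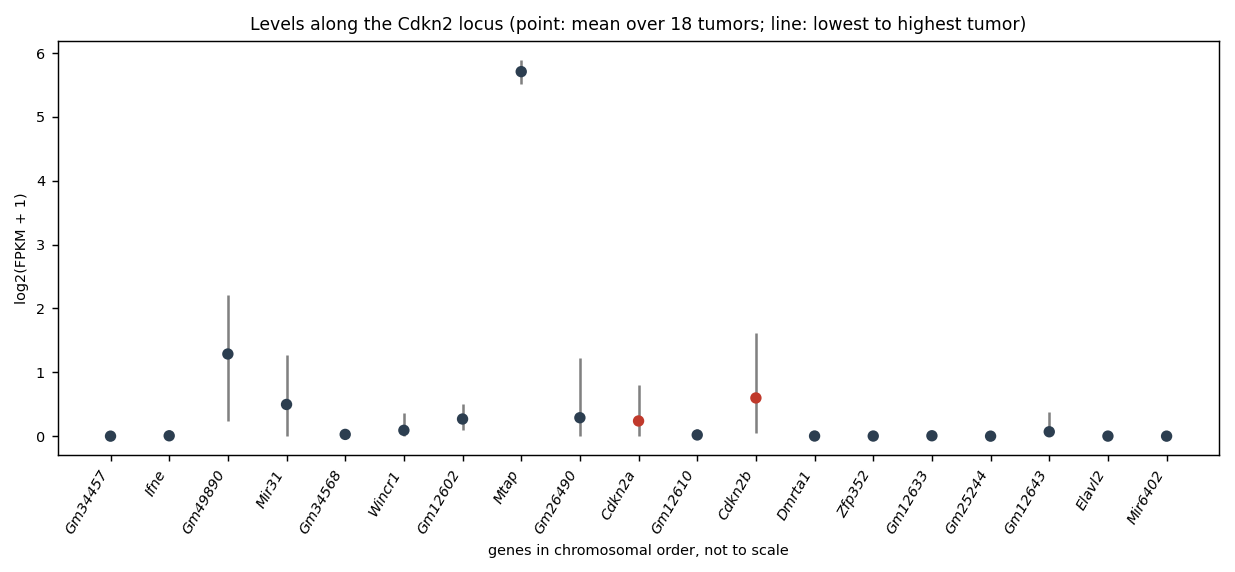
Levels, as log2(FPKM + 1), of 19 genes in chromosomal order around Cdkn2a and Cdkn2b (red), with points for the mean over 18 tumors and lines from the lowest to the highest tumor. Mtap stands at 51.3 FPKM on average, and Cdkn2a and Cdkn2b at 0.179 and 0.514 FPKM.

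The comparison of the 6 groups asked whether any treatment moved the p53 genes. In limma's F test over the groups, the percentage of all 12357 tested genes called at an adjusted p under 0.05 was 0%, and 0 of the 8 tested members were called. At an unadjusted p under 0.05 the test held 246 genes (1.99%), and of the 8 members only Ccng1, for which 0.939% of tested genes had a smaller p (limma, adjusted p = 1.00). Bbc3 came next, with 2.28% of genes ahead of it. For the others between 18.2% and 47.6% of genes had a smaller p, and Cdkn2a and Cdkn2b had adjusted p = 1.00 (limma, fit without the filter).

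The active ribozyme in its framework was compared with PBS first. No gene of the table was called (0% of 12357 in each direction, with 260, or 2.1%, at an unadjusted p under 0.05), and none of the 10 genes had an unadjusted p under 0.05. The difference in log2(FPKM + 1) was −0.33 for Cdkn1a (SE 0.30, 95% interval −0.97 to 0.32), −0.22 for Mdm2 (SE 0.16), 0.12 for Trp53 (SE 0.12) and 0.10 for Sesn2 (SE 0.26). For Bax (−0.04), Bbc3 (−0.03), Ccng1 (−0.09) and Phlda3 (0.00 after rounding) the estimate was near 0. Upper-quartile scaling turned the sign of all of them, and it moved the median over all genes from −0.01 to 0.08. The intervals of all 8 tested members did not reach 1 on this scale in either direction. Among them were those of Trp53 (−0.13 to 0.38), Bax (−0.37 to 0.28) and Phlda3 (−0.30 to 0.30). For Cdkn2b the interval was −1.02 to 0.44, and for a gene with group means of 0.654 FPKM (PBS) and 0.305 FPKM this scale understates the change.

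Against Free PS473, the framework-borne ribozyme gave lower estimates for 7 of the 8 tested members, with a median difference of −0.26 on the log2(FPKM + 1) scale, beside −0.04 over all genes. The call rate was 0% in both directions, with 615 genes (4.98%) at an unadjusted p under 0.05, among them 2 of the 8 members. Ccng1 differed by −0.44 (SE 0.17, 95% interval −0.81 to −0.07, limma, adjusted p = 0.946). Bbc3 differed by −0.40 (SE 0.17, 95% interval −0.77 to −0.03, limma, adjusted p = 0.960), so that neither passed the adjusted threshold. With 1 tumor left out, the difference ran for Bbc3 from −0.63 (without Free PS473 tumor 2) to −0.22 (without Free PS473 tumor 1). Cdkn1a differed by −0.59 (SE 0.30), and without Free PS473 tumor 2 by −0.98, against −0.37 without Free PS473 tumor 1. Free PS473 against PBS showed the complementary picture, since both contrasts share the Free PS473 tumors: 8 of 8 tested members had a higher estimate, under each scaling tried, with a median of 0.23 beside 0.03 over all genes. Leaving out any 1 of these 6 tumors gave 7 or 8 of 8, with a median from 0.07 (without Free PS473 tumor 1) to 0.35 (without Free PS473 tumor 2), and 0.14 without PBS tumor 1. The estimate was 0.37 for Bbc3 (SE 0.17, from 0.20 without Free PS473 tumor 1 to 0.60 without Free PS473 tumor 2) and 0.35 for Ccng1 (SE 0.17). The call rate was again 0%, with 224 genes (1.81%) and, of the members, Bbc3 at an unadjusted p under 0.05. The share of all genes with a higher estimate was not counted, and members that vary together do not give independent signs.

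**Figure D3:**
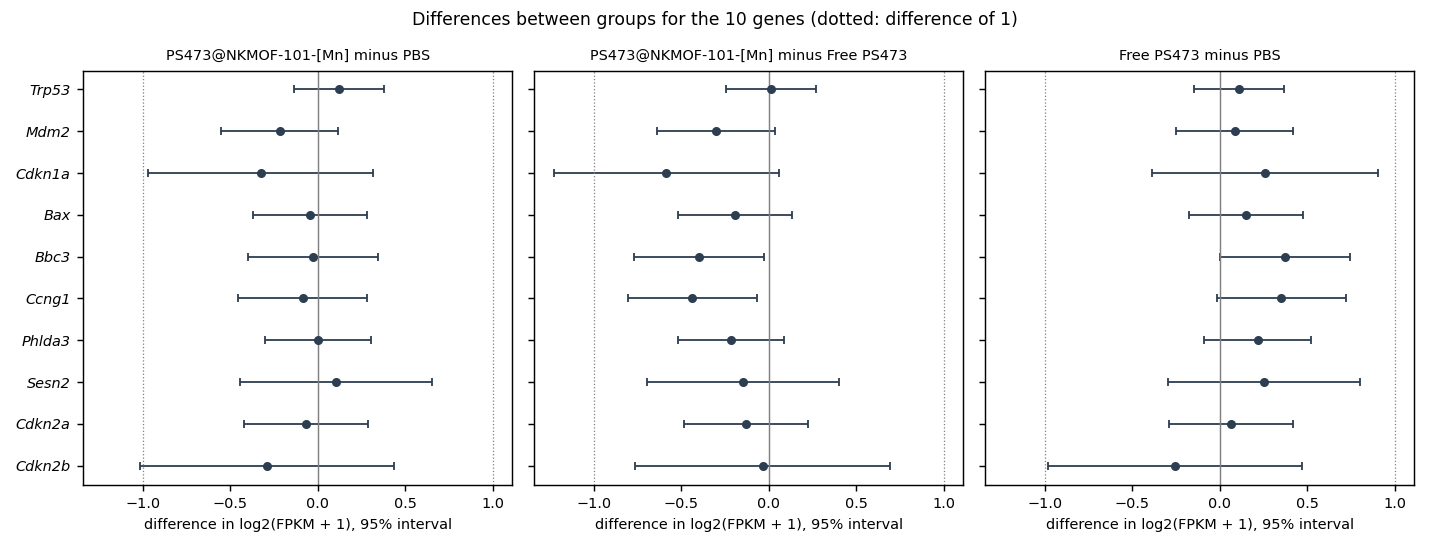
Differences in log2(FPKM + 1) for the 10 genes in 3 comparisons, with points for the limma estimate, bars for the 95% interval and dotted lines at a difference of 1 on this scale. The intervals of Ccng1 and Bbc3 in the middle panel and of Bbc3 in the right panel exclude 0 before adjustment over all genes, and no adjusted p is below 0.946.

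The other comparisons called 0% of genes as well. At the same thresholds the study itself reported genes changed in PS473@NKMOF-101-[Mn] against PS473@CPs and against Free PS473. The values tested here are log2(FPKM + 1), and the reason for the difference was not tested. At an unadjusted p under 0.05 none of the 10 genes stood out in PS473@NKMOF-101-[Mn] against PS473@CPs (2.29% of tested genes), against the empty framework (2.3%) or against M5@NKMOF-101-[Mn] (0.591%), nor in PS473@CPs (2.09%), the empty framework (1.46%) or M5@NKMOF-101-[Mn] (1.51%) against PBS. The estimates of all 8 tested members against PBS were below 0 with M5@NKMOF-101-[Mn] (median −0.09, beside −0.007 over all genes). However, 2 of them turned positive under upper-quartile scaling and 1 under quantile normalization. Under these settings the median over all genes was 0.056 and 0.035. Whether the ribozyme acted differently with and without the framework was tested as an interaction, chosen after the data were seen. It called 0 of 12357 genes, with 331 at an unadjusted p under 0.05, and the members' unadjusted p lay between 0.214 and 0.852 (limma). Counted by groups that do not overlap, 15 of 120 combinations of a tested member and a pair of groups were separated (12.5%), beside 7.56% over all tested genes. Of these 15, 4 came from Ccng1 and 3 each from Trp53 and Bbc3, and combinations that share a group are not independent.

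The question whether Cdkn2a reads followed host stroma or melanoma content was then put to the 18 tumors. No relation of Cdkn2a to either passed the test over all tumors. Its Pearson r on log2(FPKM + 1) was 0.03 with the fibroblast score (permutation p = 0.917, adjusted p = 0.959, Spearman rho −0.01, p = 0.985) and −0.11 with the melanocyte score (p = 0.664, adjusted p = 0.861, Spearman rho −0.26, p = 0.302, permutation tests). Leaving out the 2 tumors farthest from the median score gave 0.15 and 0.05. With the endothelial, macrophage and T cell scores r was −0.02, 0.17 and 0.21, and the adjusted permutation p was at least 0.728. Over deviations from group means the r of Cdkn2a with the macrophage score was 0.36 (permutation p = 0.142, adjusted p = 0.372). In the 8 skin-poor tumors alone it was 0.68 (exact permutation p = 0.0745, adjusted p = 0.544), and −0.20 with the endothelial score. Within the 8 skin-poor tumors r with the fibroblast score was 0.10, and 0.72 without the 2 farthest of them, which leaves 6, and within the 10 skin-rich tumors 0.20. The highest Cdkn2a value, 0.744 FPKM in M5@NKMOF-101-[Mn] tumor 2, came from a skin-poor tumor with a fibroblast score of 2.62, and the tumor with the second-highest fibroblast score (4.41, NKMOF-101-[Mn] tumor 1) was listed at 0. What size of relation could be seen with so few Cdkn2a fragments per tumor was not tested.

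Cdkn2b, by contrast, rose with the fibroblast score. Pearson r was 0.89 (permutation p = 1e-05, the smallest that 100000 permutations can give, adjusted p = 0.0007) and Spearman rho was 0.91 (permutation p = 1e-05, adjusted p = 0.0007), r was 0.86 without the 2 farthest tumors and 0.92 over deviations from group means, and 1.05% of tested genes had an r at or above it. The skin-poor tumors held 0.0357 to 0.410 FPKM (median 0.137) and the skin-rich tumors 0.316 to 2.06 FPKM (median 0.635). Within the 10 skin-rich tumors r with the fibroblast score was 0.88 (permutation p = 0.00049, adjusted p = 0.00392), and with the skin score 0.77 (permutation p = 0.0096, adjusted p = 0.0384). In the 8 skin-poor tumors the relation to the fibroblast score did not pass the test (r = 0.36, exact permutation p = 0.400, adjusted p = 0.640, Spearman rho 0.62, exact permutation p = 0.115), and r was 0.87 without the 2 farthest of them. With the skin score r in these tumors was 0.70 (exact permutation p = 0.0515, adjusted p = 0.137). The skin score forms separate clusters, so that no r over all tumors is given for it, and the parts of fibroblast and skin content in Cdkn2b were not tested. With the endothelial score r was 0.84 (permutation p = 3e-05, adjusted p = 0.0007, Spearman rho 0.70, p = 0.00182), and 0.14 in the skin-poor tumors alone. Its relation to the macrophage score (r = 0.63, permutation p = 0.00488, adjusted p = 0.0580) passed by rank (Spearman rho 0.75, permutation p = 0.00051, adjusted p = 0.0119) and over deviations from group means (r = 0.85, adjusted p = 0.000233). With the melanocyte score the sign was negative (r = −0.62, permutation p = 0.00574, adjusted p = 0.0580), and the relation passed once differences between groups were removed (r = −0.68, permutation p = 0.00198, adjusted p = 0.0173).

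**Figure D4:**
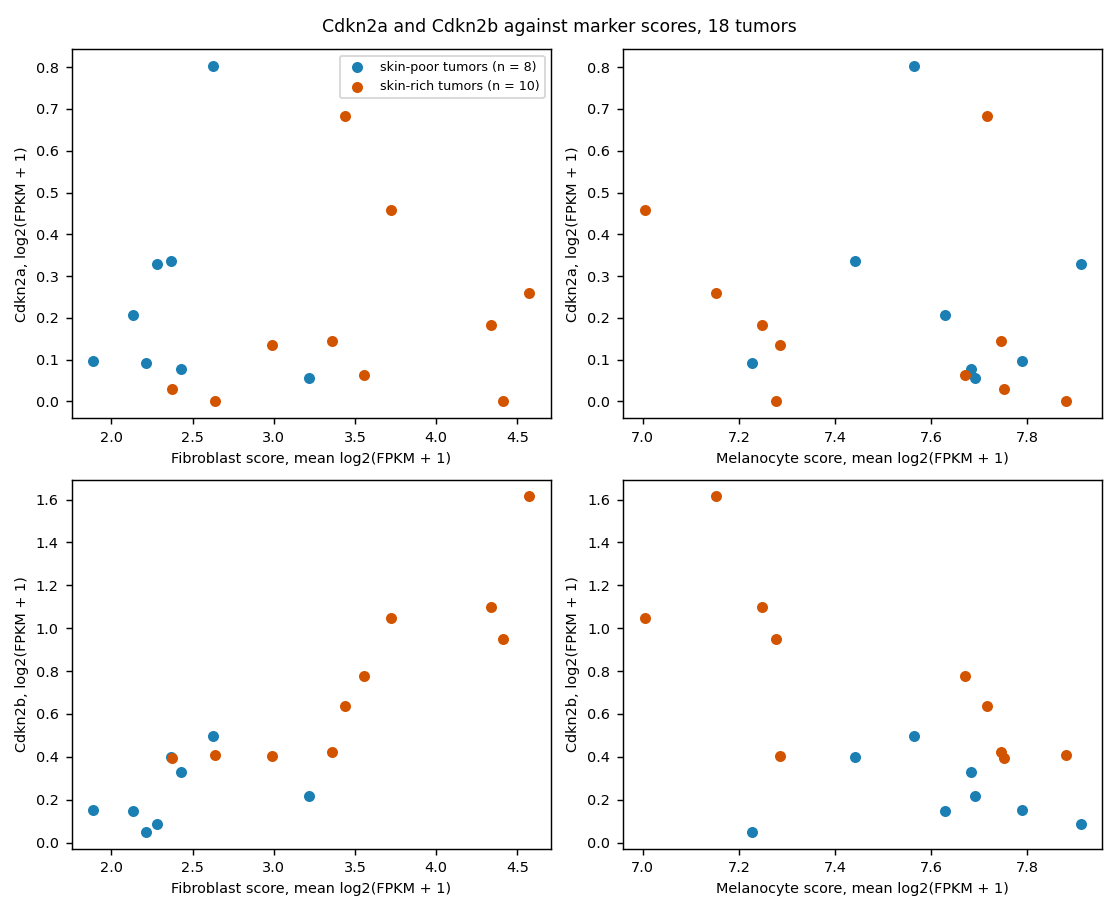
Cdkn2a (top) and Cdkn2b (bottom) in log2(FPKM + 1) against the fibroblast score (left) and the melanocyte score (right), 1 point per tumor, colored by skin-poor and skin-rich tumors. Cdkn2b rises along the fibroblast score (r = 0.89), and Cdkn2a shows no slope (r = 0.03).

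Among the p53 targets, Cdkn1a was inversely related to the melanocyte score. This score averages RNA of pigment-lineage genes, and whether it followed the number of melanoma cells was not tested. Pearson r with the melanocyte score was −0.82 (permutation p = 5e-05, adjusted p = 0.000875), and Spearman rho was −0.71 (permutation p = 0.00132, adjusted p = 0.0231). It was −0.73 without the 2 farthest tumors and −0.80 over deviations from group means, and 0.129% of tested genes had an r at or below it. In the 8 skin-poor tumors it was −0.77 (exact permutation p = 0.0351, adjusted p = 0.544). With upper-quartile scaling it became −0.63 and no longer passed (permutation p = 0.00573, adjusted p = 0.0545). Of the Free PS473 tumors, the 2 with high Cdkn1a (109.5 and 105.1 FPKM) had melanocyte scores of 7.23 and 7.00. The tumor with 46.4 FPKM had a higher score, 7.79. Host scores of the 2 high tumors differed, at 2.21 and 3.72 for fibroblasts and 2.35 and 3.76 for macrophages. With the endothelial score Cdkn1a had r = 0.58, which missed the adjusted threshold (permutation p = 0.0108, adjusted p = 0.0843). Bax had negative r with the T cell (−0.62), macrophage (−0.60) and fibroblast (−0.53) scores, and none passed (permutation tests, adjusted p = 0.0580, 0.0788 and 0.144). Under quantile normalization those with the T cell (−0.64, adjusted p = 0.0467) and macrophage (−0.72, adjusted p = 0.0115) scores did, and the latter also over deviations from group means (−0.60, adjusted p = 0.0473). Trp53 had no r beyond 0.13 in size with any of the melanocyte, fibroblast, endothelial, macrophage or T cell scores. With the score of cycling cells the r of Trp53 was 0.43 and did not pass (permutation p = 0.0731, adjusted p = 0.269, Spearman rho 0.42). In all, 70 relations of a member with a score were computed and adjusted together. All values of a tumor share 1 scaling, and FPKM of different genes are parts of 1 whole.

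**Figure D5:**
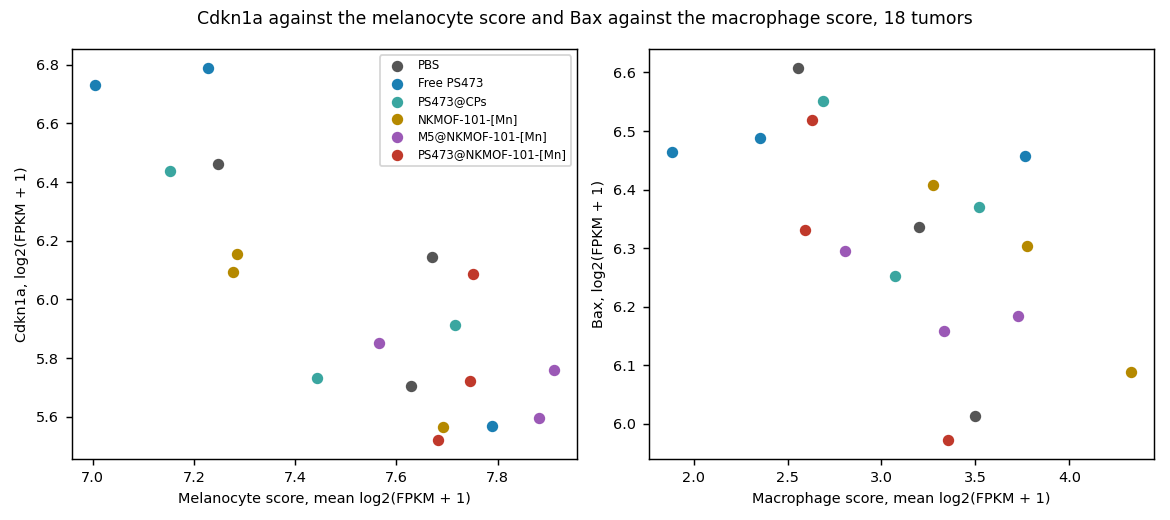
Cdkn1a against the melanocyte score (left) and Bax against the macrophage score (right), in log2(FPKM + 1), 1 point per tumor, colored by group. Cdkn1a falls along the melanocyte score (r = −0.82), and the slope of Bax (r = −0.60) did not pass the adjusted threshold.

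The targets were related to one another less closely. Of the 21 pairs among Mdm2, Cdkn1a, Bax, Bbc3, Ccng1, Phlda3 and Sesn2, 18 had a positive r over the 18 tumors, with a median of 0.35. Only Cdkn1a with Phlda3 passed adjustment over the 45 pairs of all 10 genes (r = 0.75, permutation p = 0.00037, adjusted p = 0.0166, Spearman rho 0.73, p = 0.0009), and that r was 0.64 without Free PS473 tumor 1 and 0.48 without the 2 tumors farthest in Cdkn1a. Cdkn1a with Ccng1 reached 0.64 (permutation p = 0.00434, adjusted p = 0.0976) and Cdkn1a with Cdkn2b 0.53 (permutation p = 0.0224, adjusted p = 0.126), which became 0.82 without Free PS473 tumor 1.

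The genes most like Cdkn2a were sought over deviations from group means in the 18 tumors, among genes averaging 1 FPKM or more. The 5 highest were Prmt9 (r = 0.81), Mir6945 (0.74), Pstpip1 (0.73), 4632427E13Rik (0.73) and Gm26493 (0.72). Those with the most opposite pattern were Cyp51 (r = −0.80), Nsdhl (−0.78), Fdft1 (−0.77), Scd1 (−0.77) and Lpcat3 (−0.74). These are the extremes of 12357 genes over 18 tumors and are given as a description.

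The wider pathway showed no call in any list. Of 36 further p53 targets, 30 averaged 1 FPKM or more, and 0 passed the F test or any comparison (0% of all genes called). The 4 most abundant were Sfn (14-3-3 sigma, mean 72.6 FPKM), Psrc1 (62.1), Ddit4, an mTORC1 inhibitor (58.2), and Tap1, a peptide transporter of antigen presentation (47.1). The smallest F test p belonged to Tap1, an unadjusted p under 0.05, and Trp53inp1 (limma, adjusted p = 1.00 for both). Sfn, which keratinocytes also express, ran from 1.69 to 611 FPKM. Perp, a desmosome component, was the only one of the 36 whose skin-poor tumors (0.0261 to 0.122 FPKM) did not overlap the skin-rich ones (1.03 to 275 FPKM). In Free PS473 against PBS 20 of the 30 had a higher estimate (median 0.07, beside 0.03 over all genes), and in PS473@NKMOF-101-[Mn] against PBS 13 of 30 did (median −0.07, beside −0.01).

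Upstream of p53, 15 of 16 regulators of the p53 protein were tested and 0 passed. The 4 most abundant were Usp7, a deubiquitinase of Mdm2 and p53 (24.1 FPKM), Hipk2 (11.8), Mdm4, the Mdm2 relative (11.2), and Ep300 (10.7), and Chek2 and Kat5 were first by F test p (limma, adjusted p = 1.00 for both). Downstream of Cdkn2a and Cdkn2b, 17 of 18 genes of the cyclin D and retinoblastoma axis were tested and 0 passed. Here Cdk4 averaged 247 FPKM, Cdk2 163, the inhibitor Cdkn1b 46.6 and Ccnd3 31.9, while the 2 remaining members of the Ink4 family, Cdkn2c and Cdkn2d, averaged 21.9 and 22.6 FPKM, far above Cdkn2a on the same per-length scale. In RefSeq the span of Cdk2 overlaps that of the far more abundant Pmel, so that its value is uncertain where reads were split between them. Rbl2 and Rb1 had the smallest F test p of this list (limma, adjusted p = 1.00 for both). Of the Polycomb repressors known to act on the locus, 7 of 8 were tested and 0 passed, with Suz12 (56.8 FPKM), Bmi1 (34.7), Ezh2 (26.3) and Eed (25.0) the most abundant and Rnf2 and Suz12 the first by F test p (limma, adjusted p = 1.00 for both). Of 6 listed neighbours of the locus, Mtap and Klhl9 were tested and neither passed (limma F test, adjusted p = 1.00 for both).

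For the marker lists behind the scores, the 3 most abundant genes were Col1a1, Col1a2 and Fbln1 for fibroblasts (91.1, 52.9 and 47.8 FPKM), Egfl7, Pecam1 and Cdh5 for endothelium (17.1, 8.20 and 5.46 FPKM) and C1qb, C1qa and C1qc for macrophages (52.9, 47.8 and 40.8 FPKM). They were Gzmb, Nkg7 and Lck for T and natural killer cells (1.97, 1.92 and 1.61 FPKM), Krt14, Krt5 and Krt17 for skin (297, 114 and 109 FPKM), Acta1, Mylpf and Ckm for muscle (5.49, 2.23 and 1.75 FPKM) and Pcna, Mcm2 and Top2a for cycling cells (274, 153 and 97.7 FPKM). Fbln1 varied by 12.1% over the tumors while Col1a1 varied by 97.0%, so that not every gene of the fibroblast list moved with it. No listed gene was called between groups.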

How the data were processed

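Tumors were grouped by their sample titles, and each counted as 1 replicate. The authors deposited 1 table of FPKM values with a gene length per gene, made from poly(A) libraries. The processing notes name build GRCm39. The aligner and counter are not given in the sources used here. FPKM times length summed to the same total in every tumor, and the size of the smallest increments gave the depth (17169000 to 28402000 fragments). This takes the smallest step as 1 fragment. Between 47.4% and 51.4% of low values were whole within 0.05 fragments and at least 97.6% were multiples of 0.25, so no count model was used.

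Values were taken as log2(FPKM + 1), and limma 3.58.1 was fitted to the 12357 genes averaging 1 FPKM or more (R 4.3.3, 1 mean per group, trended moderation), for an F test over 6 groups and 9 comparisons, PS473@NKMOF-101-[Mn] against each other group and each other group against PBS. P values were adjusted by Benjamini-Hochberg over all genes, and a call required an adjusted p under 0.05 and, in comparisons, an absolute log2 change above 1. Scores are means of log2(FPKM + 1) over marker lists. Correlations used numpy 2.4.6, with ranks from scipy 1.17.1, 100000 two-sided permutations of 18 or 10 tumors and exact enumeration for 8. Limma and the permutation test were run on simulated data with independent noise, without the host-tissue variation that genes share in these tumors. For limma the planted changes were 1.5 to 3 on the log2 scale, so smaller changes were not covered. Named genes are the 10 members, the 4 most abundant and the 2 of smallest F test p in each pathway list, the 5 genes at each end of the relation to Cdkn2a, and the 3 most abundant of each marker list. Gm12610, Dmrta1, Elavl2, Perp, Cdkn2c, Cdkn2d and the genes nearest to Cdkn2b and Cdkn1a were added once values were known. The members and lists were chosen with earlier results of these data known. Replicate numbers did not pair tumors (median r of deviations −0.02 for equal numbers). No table of proteins was used here.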

Additional observations from a re-analysis of the deposited data

How the results depend on the processing

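No member passed the adjusted threshold under any alternative: the smallest adjusted p of a member over 22 reported differences and all settings was 0.432. The count of called genes stayed at 0 except that the F test called 4 genes with no filter and PS473@CPs against PBS called 1 gene when those groups were fitted alone. With 1 tumor left out, PS473@CPs against PBS called between 0 and 1 genes, the 1 being without PS473@CPs tumor 3, and the 8 other comparisons and the F test called 0. A replicate block left all these counts at 0, and 4 of 18 tumors matched best a tumor with their own number.

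Upper-quartile scaling turned the difference of PS473@NKMOF-101-[Mn] from PBS to 0.0663 for Bax, 0.0539 for Bbc3, 0.0234 for Ccng1 and 0.110 for Phlda3. Quantile normalization turned Bbc3 to 0.0855. Over all genes the median of this comparison was 0.0798 under upper-quartile scaling and 0.0457 under quantile normalization, against −0.0137 without them. For Cdkn2b against Free PS473, a pseudocount of 0.1 gave 0.323 and quantile normalization 0.0545, against −0.0338. The cause was not tested. With 1 tumor left out, these differences from PBS ranged from −0.0180 to 0.225 for Trp53, −0.197 to 0.107 for Bax, −0.107 to 0.0225 for Bbc3, −0.246 to 0.0697 for Ccng1, −0.0869 to 0.0522 for Phlda3 and −0.0583 to 0.328 for Sesn2, and those from Free PS473 from −0.0944 to 0.1001 for Trp53, −0.335 to 0.108 for Sesn2 and −0.217 to 0.282 for Cdkn2b.

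The relation of Cdkn2a to the fibroblast score turned to −0.11 under quantile normalization and ranged from −0.0398 to 0.142 with 1 tumor left out, and that to the melanocyte score from −0.227 to 0.01999. With the endothelial score, deviations from group means gave 0.0198, and leaving out 1 tumor −0.127 to 0.0848. The relation of Cdkn2b to the fibroblast score stayed between 0.88 and 0.92 with 1 tumor left out and fell to 0.36 without the skin-rich tumors, a setting chosen after seeing the data that leaves 8 tumors. The relation of Cdkn2b to the melanocyte score passed over deviations from group means (−0.68) and with a replicate block (−0.76), and ranged from −0.76 to −0.54 with 1 tumor left out, passing without Free PS473 tumor 1 (−0.76). Cdkn2b with the macrophage score passed with the block (0.84), a pseudocount of 0.1 (0.73) and over deviations from group means (0.85), Bax with it passed with the block (−0.60), quantile normalization (−0.72) and over deviations (−0.60), and Bax with the T cell score passed under quantile normalization (−0.64). Depth limits Cdkn2a, with 3 fragments worth between 0.0930 and 0.154 FPKM.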

Other observations

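Cdkn2b and Cdkn1a were also searched for the genes nearest to them over deviations from group means, a step added after the data were seen. For Cdkn2b the highest were Sgk1 (r = 0.97), Il4ra (0.97), Pde2a (0.97), Plp2 (0.96) and Nfkbia, the inhibitor of NF-kappaB (0.96), and the most opposite were 2610027K06Rik (−0.93), Tgif2 (−0.91) and Rap2b (−0.90). For Cdkn1a the highest were the cytoskeletal genes Actb (0.89) and Tubb3 (0.88), followed by Nes, which encodes nestin (0.86). The most opposite were Gm829 (−0.97) and Cdk2, whose product p21 inhibits (−0.92). Over all 18 tumors Cdk2 had r = −0.82 with Cdkn1a and 0.72 with Pmel, whose RefSeq span overlaps that of Cdk2. These are extremes of 12357 genes over 18 tumors, with no test.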
